A study of Mus musculus with 12 samples.

Results

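The genes described here are 10 genes known to be induced by glucocorticoid hormones, namely Fkbp5, Sgk1, Tsc22d3, Zbtb16, Cdkn1a, Mt1, Mt2, Map3k6, Klf9 and Plin4. They were chosen by name and read by Ensembl gene identifier from the gene tables of 12 mouse brains. No measured value is part of the rule, but the genes were chosen with earlier results of these data known. They are 10 of the 38924 genes in those tables, and all 10 were among the 16493 genes left for testing by a filter on low counts. Each library is shown on its own, because a mouse's stress at collection may vary and the labels do not record it.

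Polyadenylated RNA of whole brains was sequenced from mice aged 6 weeks, with 1 library per mouse and 3 mice per genotype. The h4 mice were Rorbh4/h4 on the B6.129S7-Il1r1tm1Imx/J background, a line that carries a targeted Il1r1 allele. The h2 mice were Rorbh2/h2 on B6(Cg)-Tyrc-2J/J, a line with a Tyr allele. The h1 mice were Rorbh1/h1 on C57BL/6J, and the WT mice were C57BL/6J. Allele and background therefore cannot be told apart for h4 and h2. Rorb encodes an orphan nuclear receptor, and mice that lack it are known for a high-stepping, duck-like gait.

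Glucocorticoids are the adrenal steroids released by stress and by the daily rhythm, corticosterone being the main one in mice. In the cell the hormone binds the glucocorticoid receptor, which leaves its Hsp90 chaperone complex, enters the nucleus and binds response elements made of inverted half-sites near its target genes. In the brain the same hormone is also bound by the mineralocorticoid receptor, and targets such as Fkbp5, Sgk1 and Tsc22d3 are commonly read as markers of recent exposure.

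The libraries held 14513800 to 24694200 expected counts, and expression is given in CPM, the count of a gene scaled to a common library total. Rorb stood at 9.11, 8.65 and 8.66 CPM in h4, at 31.1, 31.0 and 22.6 CPM in h2, at 23.2, 33.1 and 22.6 CPM in h1, and at 18.4, 16.3 and 17.1 CPM in WT. It fell in h4 against WT (log2 fold change -0.98, SE 0.20, edgeR quasi-likelihood test, adjusted p = 0.031), and its differences of 0.70 in h2 and 0.62 in h1 did not pass (adjusted p = 0.147 and 0.242). Xist and Ddx3y placed 7 libraries as female and 5 as male, with all 3 WT mice female, h4 replicate 2 the male of its genotype, h2 replicate 2 the female of its genotype and h1 replicate 1 the female of its genotype. Neuronal markers summed to 4591 to 4842 CPM in every library, and of 5 pituitary markers 0 passed the filter on low counts. In whole tissue, fewer cells of a type and less RNA per cell cannot be told apart.

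All 10 genes had their highest mean in h1, and 8 of 10 had their lowest mean in h2. The exceptions were the metallothioneins Mt1 and Mt2, whose lowest mean was in WT. The order of the means was h1, WT, h4 and h2 for 6 genes. Of 30 neighbouring pairs of genotypes in the order over the 10 genes, 0 passed at an adjusted p under 0.05. The libraries of some neighbours overlapped and those of others did not. Among the latter, h1 was above WT for Tsc22d3 and Klf9, and above h4 for Mt1, Mt2 and Map3k6. Between the ends of the order, h2 against h1, the libraries of the 2 genotypes did not overlap for any of the 10 genes. All h2 libraries were lower in that way for 6.49% of all tested genes. In that comparison 2 of the 10 genes fell at an adjusted p under 0.05, where 0.534% of all tested genes were called lower. Against WT, 0 of 10 passed in h4, h2 or h1, where 4.55%, 0.679% and 0.625% of all tested genes were called.

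**Figure D1:**
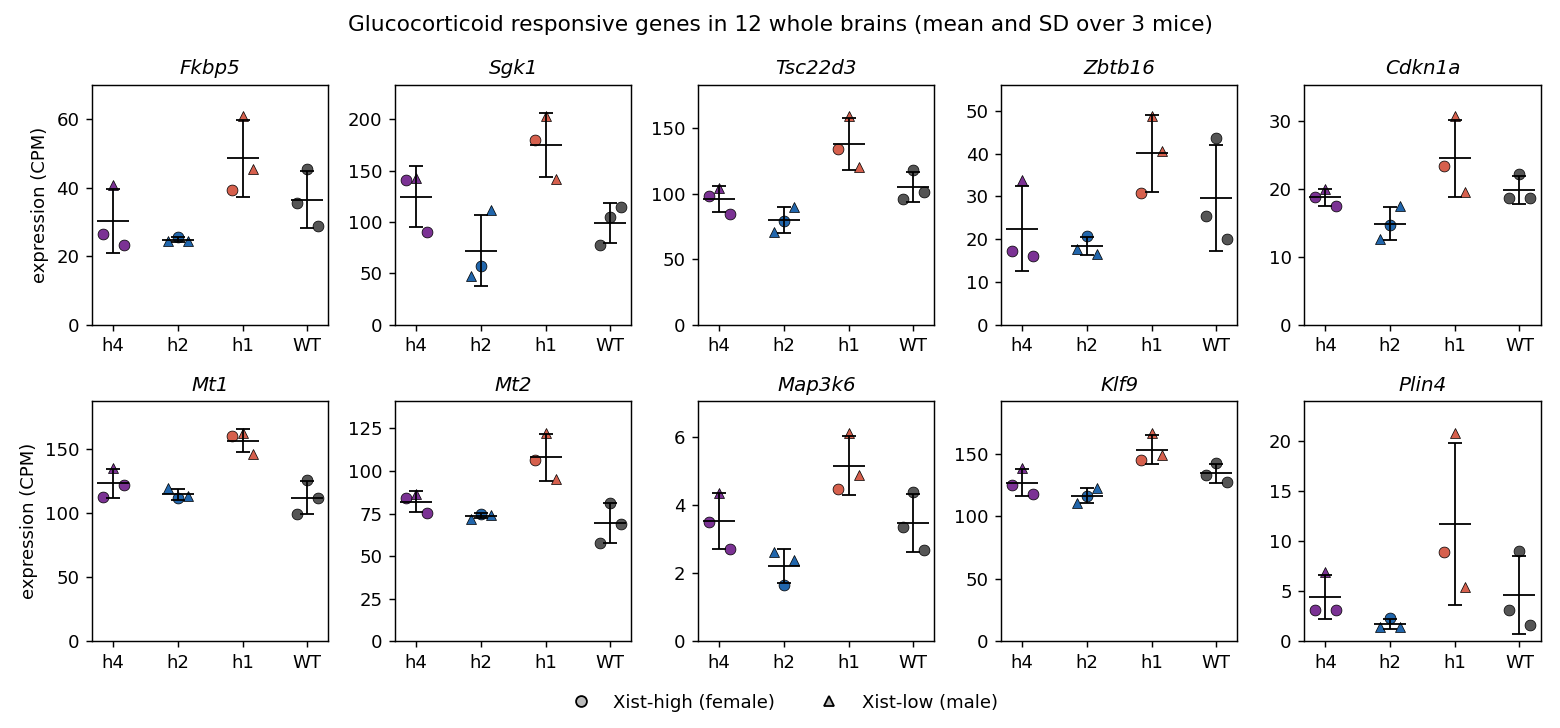
Expression in CPM (vertical axes from 0, each with its own scale) of the 10 genes in the 12 brains, by genotype. Points are single libraries, circles female and triangles male as read from Xist, with bars for the mean and SD over 3 mice. The h1 libraries lie above the h2 libraries for all 10 genes, and h1 replicate 2 is the highest point in each panel.

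Fkbp5 (ENSMUSG00000024222, chr17:28399094-28517527, minus strand, GRCm38) encodes a co-chaperone that joins the Hsp90 complex and lowers the receptor's affinity for hormone, so that its induction damps the response. It stood at 26.6, 40.9 and 23.2 CPM in h4, at 24.5, 25.6 and 24.5 CPM in h2, at 39.3, 60.9 and 45.5 CPM in h1, and at 35.6, 45.4 and 28.7 CPM in WT. The 3 h2 libraries lay close together and below every h1 and WT library, while h4 and WT each had replicate 2 well above the others. Its log2 fold change was -0.97 (SE 0.26) in h2 against h1, with an edgeR adjusted p of 0.199.

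Among regulators of transcription, Zbtb16 (ENSMUSG00000066687, chr9:48654297-48836222, minus strand) encodes the zinc finger repressor PLZF. It stood at 17.3, 33.8 and 16.1 CPM in h4, at 17.8, 20.7 and 16.6 CPM in h2, at 30.7, 48.7 and 40.7 CPM in h1, and at 25.4, 43.6 and 20.03 CPM in WT. As for Fkbp5, replicate 2 of h4 and replicate 2 of WT stood above the other mice of their genotypes, and all h2 libraries were below all h1 libraries. Tsc22d3 (ENSMUSG00000031431, chrX:140539528-140600659, minus strand) encodes GILZ, a leucine zipper protein that carries part of the anti-inflammatory action of glucocorticoids. It stood at 98.1, 104 and 84.7 CPM in h4, at 70.5, 79.3 and 90.1 CPM in h2, at 134, 159 and 120.1 CPM in h1, and at 95.6, 118 and 101 CPM in WT. All h1 libraries were above every other library, and all h2 libraries were below every WT library. Klf9 (ENSMUSG00000033863, chr19:23141226-23168134, plus strand) encodes a Krüppel-like zinc finger factor that is induced by stress hormones in the hippocampus, and lies 4.03 Mb from Rorb on the same chromosome. It stood at 125, 139 and 118 CPM in h4, at 111, 116 and 123 CPM in h2, at 145, 167 and 149 CPM in h1, and at 134, 143 and 128 CPM in WT. Again the h1 libraries were above all others and the h2 libraries below all WT libraries, over a range of 1.51-fold from the lowest to the highest library, the smallest of the 10 genes.

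Klf9 fell in h2 against h1 (log2 fold change -0.41, SE 0.07, 1.33-fold lower, edgeR adjusted p = 0.035). Tsc22d3 showed -0.79 (SE 0.14) in the same comparison with an adjusted p of 0.055, and Zbtb16 showed -1.13 (SE 0.37) with an adjusted p of 0.332. The Klf9 call was lost under limma on log2(TPM + 1), and without WT replicate 1 or 3, h1 replicate 3, any single h2 library or h4 replicate 1, with adjusted p-values up to 0.191, and its fold change stayed between -0.45 and -0.34 under every alternative.

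Of the kinases, Sgk1 (ENSMUSG00000019970, chr10:21882184-21999903, plus strand) encodes a serine/threonine kinase that regulates ion channels and transporters. It stood at 141, 143 and 90.3 CPM in h4, at 47.9, 57.4 and 111 CPM in h2, at 180.0, 203 and 142 CPM in h1, and at 77.5, 105 and 115 CPM in WT. Its high mouse within WT was replicate 3 and not replicate 2, and h2 replicate 3 stood at about the level of the upper WT mice. The log2 fold change in h2 against h1 was -1.26 (SE 0.33), with an edgeR adjusted p of 0.191. Map3k6 (ENSMUSG00000028862, chr4:133240818-133252929, plus strand) encodes a mitogen-activated protein kinase kinase kinase. It was read at 38 to 132 expected counts per library, the weakest counts of the 10 genes beside those of Plin4. It stood at 3.51, 4.35 and 2.72 CPM in h4, at 2.62, 1.66 and 2.38 CPM in h2, at 4.48, 6.13 and 4.87 CPM in h1, and at 3.36, 4.38 and 2.68 CPM in WT. The 3 h2 libraries were below all others, and the 3 h1 libraries were above all others. Map3k6 fell in h2 against h1 (log2 fold change -1.26, SE 0.20, 2.40-fold lower, edgeR adjusted p = 0.0035), and it passed without each of the 12 libraries in turn.

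The estimated transcript length of Map3k6 differed between libraries, on 38 to 132 expected counts per library. Lengths of Fkbp5, Sgk1, Tsc22d3 and Cdkn1a also varied, with exact permutation p of 0.2 to 0.9 for each mutant against WT. The remaining genes had a fixed length. The p-values for length were not adjusted over genes and genotypes. RSEM estimates a mean transcript length per library from the mix of transcripts, and for Map3k6 this was 1447, 1826 and 1664 bases in h4, 1111, 1548 and 1396 bases in h2, 1955, 2422 and 1791 bases in h1, and 2005, 2159 and 2364 bases in WT. The h4 and h2 values were all below the WT values (exact permutation test, two-sided, p = 0.1 each, the smallest that 3 against 3 libraries allow), and the h1 values overlapped them (exact p = 0.7). Per length, Map3k6 stood at 5.24, 4.95 and 3.48 TPM, the level per transcript length, in h4, at 5.31, 2.35 and 3.78 TPM in h2, at 4.82, 5.18 and 5.74 TPM in h1, and at 3.60, 4.28 and 2.31 TPM in WT, and h2 and h1 overlapped. On log2(TPM + 1) its h2 against h1 difference was -0.42, with a limma adjusted p of 0.688, a fit that changed the unit and the test together and called 4 genes in all, against 119 in the edgeR fit.

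Cdkn1a (ENSMUSG00000023067, chr17:29090976-29100727, plus strand) encodes the cyclin-dependent kinase inhibitor p21, which is also a target of p53. It stood at 18.8, 19.9 and 17.5 CPM in h4, at 12.6, 14.6 and 17.4 CPM in h2, at 23.3, 30.7 and 19.6 CPM in h1, and at 18.6, 22.2 and 18.6 CPM in WT. All h2 libraries were below all libraries of the other genotypes, and h1 overlapped WT. Its log2 fold change in h2 against h1 was -0.71 (SE 0.17), with an edgeR adjusted p of 0.140. Among 12 other p53 targets, 1 fell in that comparison, where 0.722% of all tested genes were called. This was Trp53inp1 (-0.49, SE 0.07, edgeR adjusted p = 0.0011), which encodes a p53-inducible nuclear protein. The log2 fold changes of the 12 were positive for 4 and negative for 8. Cdkn1a lies 573448 bases from Fkbp5.

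Mt1 (ENSMUSG00000031765, chr8:94179082-94180327) and Mt2 (ENSMUSG00000031762, chr8:94172664-94173568) encode metallothioneins, small proteins that bind zinc and copper, and lie on the plus strand of chromosome 8 with 5513 bases between them. Mt1 stood at 113, 135 and 122 CPM in h4, at 119.5, 112 and 113 CPM in h2, at 161, 163 and 147 CPM in h1, and at 99.5, 126 and 112 CPM in WT. Mt2 stood at 84.0, 86.7 and 75.3 CPM in h4, at 72.0, 74.8 and 74.0 CPM in h2, at 106, 122 and 95.0 CPM in h1, and at 57.9, 81.4 and 68.7 CPM in WT. For both, the h1 libraries were above all others and h4, h2 and WT overlapped, apart from h4 over h2 for Mt2, so the pair differed from the other 8 genes in not being lowest in h2. The log2 fold changes in h1 against WT were 0.49 (SE 0.09) for Mt1 and 0.65 (SE 0.13) for Mt2, with edgeR adjusted p-values of 0.062 and 0.098. Without WT replicate 2 both passed in that comparison. Of 12 other genes of the metal response, 1 rose in h1 against WT, where 0.625% of all tested genes were called. This was Fth1 (0.22, SE 0.04, edgeR adjusted p = 0.0042), the heavy chain of the iron store ferritin. In that comparison 5 of the 12 log2 fold changes were positive and 7 negative, with a median of -0.015. Fth1 also rose against WT in h4 (0.18, adjusted p = 0.0041) and h2 (0.16, adjusted p = 0.046).

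Plin4 (ENSMUSG00000002831, chr17:56100591-56109803, minus strand) encodes a perilipin, a coat protein of lipid droplets. It stood at 3.13, 6.91 and 3.11 CPM in h4, at 1.45, 2.35 and 1.40 CPM in h2, at 8.86, 20.8 and 5.37 CPM in h1, and at 3.13, 9.03 and 1.64 CPM in WT, on 21 to 448 expected counts. It had the widest range of the 10 genes, 14.8-fold from h2 replicate 3 to h1 replicate 2, and WT alone spanned from the h2 range into the h1 range. Its log2 fold change in h2 against h1 was -2.72 (SE 0.80), the farthest from 0 of the 10 genes, with an edgeR adjusted p of 0.248.

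Per length, the most abundant of the 10 genes was Mt1 with a mean of 719 TPM over the 12 libraries, then Mt2 with 450 TPM, Tsc22d3 with 119 TPM, Sgk1 with 101 TPM and Klf9 with 81.6 TPM. Fkbp5 with 24.5 TPM, Cdkn1a with 22.0 TPM and Zbtb16 with 10.6 TPM followed, and Map3k6 with 4.25 TPM and Plin4 with 1.89 TPM were lowest. The ranges over libraries of neighbours overlapped in this order, except those of Mt2 and Tsc22d3, of Klf9 and Fkbp5, and of Zbtb16 and Map3k6.

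The DNA around the start sites was searched for the letters of the glucocorticoid receptor element and of the metal response element. RefSeq promoter windows of 300 bases, from 250 before to 50 after the start (GRCm38.p6), were matched by symbol for 9 of the 10 genes, with 17 windows in all because some genes have several starts. The motif ACANNNTGT with GN before it and NC after it, an extended form of the palindrome bound by the glucocorticoid receptor, was searched on both strands and found in 0.475% of 32851 windows of all genes and in 3 of the 17, one each of Sgk1, Map3k6 and Mt1. Its core ACANNNTGT, which overlaps every extended match, was in 6.85% of all windows and in 4 of the 17, those of the extended matches and another window of Sgk1. The metal response element core, searched as TGCACNC or TGCGCNC on both strands, was in 25.7% of all windows, and 4 or more matches were in 0.517%. Mt2 had 4 matches and Mt1 had 3. These 4 windows are shown because they carry the extended motif or several metal elements, in capitals, 5′ to 3′ on the plus strand.
Sgk1, receptor motif, chr10:21993640-21993939: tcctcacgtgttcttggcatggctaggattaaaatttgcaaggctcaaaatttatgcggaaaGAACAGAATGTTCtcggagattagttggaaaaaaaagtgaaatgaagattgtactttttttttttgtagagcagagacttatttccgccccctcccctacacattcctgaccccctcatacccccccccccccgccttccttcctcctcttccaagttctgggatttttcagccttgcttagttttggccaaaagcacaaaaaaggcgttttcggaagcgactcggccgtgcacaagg
Map3k6, receptor motif, chr4:133240568-133240867: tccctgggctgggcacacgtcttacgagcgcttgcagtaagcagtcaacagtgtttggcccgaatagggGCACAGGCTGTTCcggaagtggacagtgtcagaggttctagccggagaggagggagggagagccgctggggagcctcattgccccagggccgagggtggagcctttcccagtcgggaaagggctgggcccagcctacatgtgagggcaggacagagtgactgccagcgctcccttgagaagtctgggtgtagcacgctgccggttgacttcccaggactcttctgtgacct
Mt1, receptor motif and metal elements, chr8:94178839-94179138: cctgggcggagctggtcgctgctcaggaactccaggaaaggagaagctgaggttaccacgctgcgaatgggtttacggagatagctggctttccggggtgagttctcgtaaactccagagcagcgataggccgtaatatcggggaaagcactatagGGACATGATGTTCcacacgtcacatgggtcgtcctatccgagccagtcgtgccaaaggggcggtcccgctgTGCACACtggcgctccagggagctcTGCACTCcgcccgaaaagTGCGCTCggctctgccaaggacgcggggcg
Mt2, metal elements, chr8:94172368-94172667: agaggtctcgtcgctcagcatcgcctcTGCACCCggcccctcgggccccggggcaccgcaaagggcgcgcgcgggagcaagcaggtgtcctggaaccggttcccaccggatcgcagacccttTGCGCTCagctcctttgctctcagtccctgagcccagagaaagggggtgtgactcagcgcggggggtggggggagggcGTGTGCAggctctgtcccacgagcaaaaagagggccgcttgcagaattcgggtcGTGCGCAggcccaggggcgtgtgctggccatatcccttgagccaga
The receptor motif begins 188 bases before the start in Sgk1, 181 in Map3k6 and 94 in Mt1. Matches to letters are a description of these windows and no measurement of binding. Fkbp5, Tsc22d3, Klf9, Cdkn1a, Mt2 and Plin4 had no match to the core or the extended motif in their windows, and nothing about the receptor follows from that, since many of its known elements lie outside such windows.

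In h2 against h1, 2 of the 10 genes fell, Map3k6 and Klf9, where 0.534% of all tested genes were called lower and 0.722% in either direction. The libraries did not overlap for 10 of 10 genes, all with h2 lower, where 6.49% of all tested genes had the same pattern. The median log2 fold change of the 10 genes was -0.88 (range -2.72 to -0.41), against 0.00 over all tested genes. All 10 had an unadjusted p under 0.05, as did 9.49% of all tested genes. DESeq2 called 9 of the 10, all except Zbtb16, and limma on log2(TPM + 1) called 0. DESeq2 changed the test and the scaling together, and limma the test and the unit, and the direction of the 10 genes was the same in both.

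**Figure D2:**
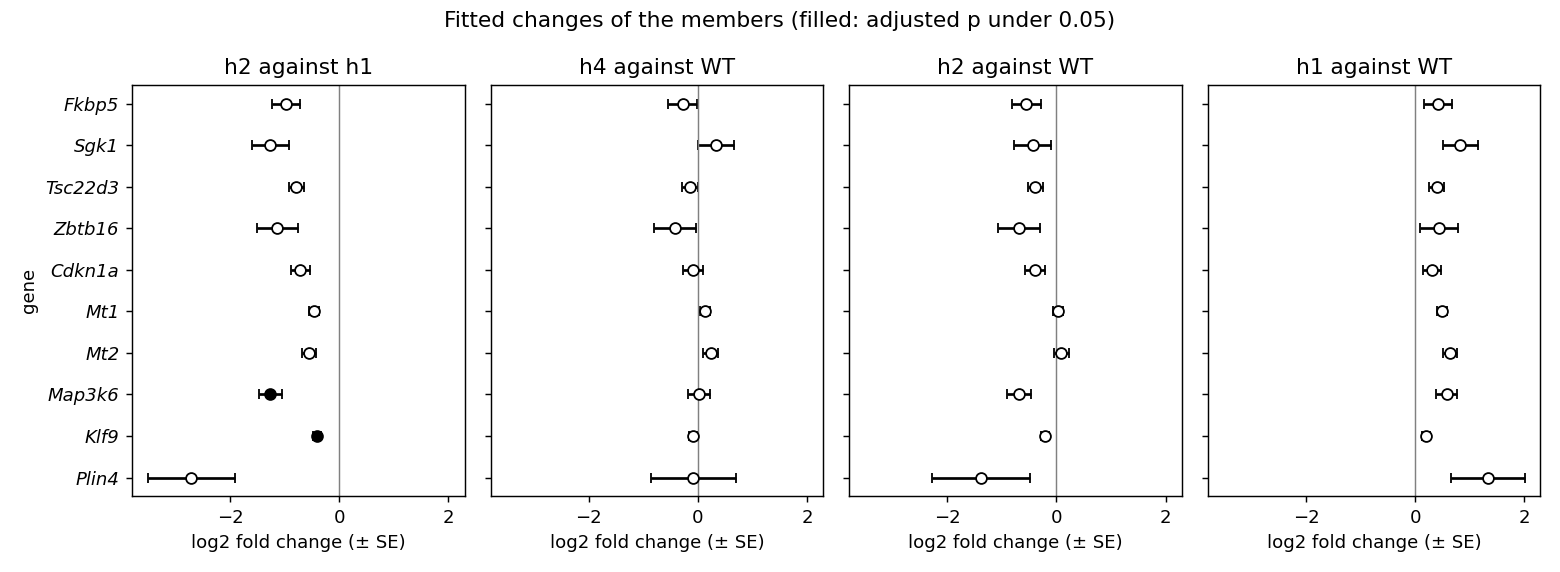
Fitted log2 fold change (horizontal axis, with its standard error from edgeR) of the 10 genes in h2 against h1, h4 against WT, h2 against WT and h1 against WT. Filled points mark an adjusted p under 0.05 over all tested genes, reached by Map3k6 (-1.26) and Klf9 (-0.41) in h2 against h1.

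In h4 against WT, 0 of 10 genes passed, where 4.55% of all tested genes were called. The libraries of h4 and WT overlapped for all 10 genes, where 12.1% of all tested genes had all h4 libraries higher and 9.17% had all h4 libraries lower. In h4, 0 of the 10 had an unadjusted p under 0.05, against 17.6% of all tested genes, and DESeq2 called 0. The log2 fold changes ran from -0.42 for Zbtb16 to 0.32 for Sgk1, with a median of -0.09 against 0.01 over all tested genes. In this genotype Plin4 averaged 4.38 ± 2.19 CPM in h4 and 4.60 ± 3.91 CPM in WT (SD, n = 3 each), and Map3k6 averaged 3.53 ± 0.817 CPM in h4 and 3.47 ± 0.856 CPM in WT.

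In h2 against WT, 0 of 10 genes passed, where 0.679% of all tested genes were called. The log2 fold change was negative for 8 genes, with 0.03 for Mt1 and 0.09 for Mt2, and the median was -0.41 against 0.00 over all tested genes. Fkbp5, Tsc22d3, Cdkn1a, Map3k6 and Klf9 had all h2 libraries below all WT libraries, where 7.53% of all tested genes had that pattern. Unadjusted p-values under 0.05 were reached by 3 of the 10, and by 11.5% of all tested genes, and DESeq2 called 0. Map3k6 came nearest (-0.68, SE 0.22, edgeR adjusted p = 0.169), and it passed with sex as a covariate, without the low-count filter, or without WT replicate 3. Klf9 (-0.21, SE 0.07, adjusted p = 0.310) passed where only h2 and WT entered the fit.

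In h1 against WT, 0 of 10 genes passed, where 0.625% of all tested genes were called. All 10 log2 fold changes were positive, from 0.20 for Klf9 to 1.33 for Plin4, with a median of 0.47 against 0.00 over all tested genes. Sgk1, Tsc22d3, Mt1, Mt2, Map3k6 and Klf9 had all h1 libraries above all WT libraries, where 6.21% of all tested genes had that pattern. Unadjusted p-values under 0.05 were reached by 6 of the 10, as by 9.82% of all tested genes, and DESeq2 called Mt1 and Mt2. WT and h1 share the C57BL/6J background, but the WT mice were all female and 2 of the 3 h1 mice were male. By that pattern, the h1 female, replicate 1, was above all 3 WT females for these 6 genes, a comparison that rests on 1 mouse. This mouse was also above them for Cdkn1a (23.3 CPM against at most 22.2 CPM in WT). It lay within the WT range for Fkbp5 (39.3 CPM against 28.7 to 45.4 CPM), Zbtb16 (30.7 CPM against 20.03 to 43.6 CPM) and Plin4 (8.86 CPM against 1.64 to 9.03 CPM). With sex as a covariate, 0 of the 10 genes passed in h1 against WT, and 31 of all genes were called, against 103 without it. The effect of sex itself on these levels was not tested.

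The remaining pairs had 0 of 10 genes called. In h4 against h1, where 4.64% of all tested genes were called, all 10 log2 fold changes were negative with a median of -0.52. Tsc22d3, Mt1, Mt2, Map3k6 and Klf9 did not overlap there, where 9.42% of all tested genes had all h4 libraries lower, and Klf9 had the smallest adjusted p (-0.29, SE 0.07, edgeR adjusted p = 0.0502). Unadjusted p-values under 0.05 were reached by 8 of 10, as by 19.1% of all tested genes, and DESeq2 called Klf9, Mt1, Mt2 and Tsc22d3. In h4 against h2, where 3.22% of all tested genes were called, all 10 were positive with a median of 0.28, 1 had an unadjusted p under 0.05, against 16.8% of all tested genes, and DESeq2 called 0. Cdkn1a, Mt2, Map3k6 and Plin4 did not overlap there, where 12.1% of all tested genes had all h4 libraries higher. The 6 comparisons reuse the same 12 libraries, so their directions are not independent of each other.

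A single test of any difference among the 4 genotypes called 4 of the 10 genes, where 6.67% of all tested genes were called. These were Map3k6 (edgeR adjusted p = 0.0038), Klf9 (0.029), Mt1 (0.031) and Tsc22d3 (0.044), and Mt2 followed at 0.055. Without h2 replicate 1 or h2 replicate 2 the count was 1, Map3k6, and it was 2 without WT replicate 1, WT replicate 3, h1 replicate 1, h4 replicate 1 or h4 replicate 3, Map3k6 among them each time. Zbtb16 had the largest adjusted p of the 10 genes in this test, 0.270.

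The genes also moved together from mouse to mouse. The h1 replicate 2 library, a male, had the highest level of all 12 for each of the 10 genes. Within h4, replicate 2, a male, was the highest for 10 of 10 genes, and within WT, replicate 2, a female, was the highest for 9 of 10, Sgk1 being the exception. The lowest library of all 12 was h2 replicate 1 for 4 genes, h4 replicate 3 for 2, WT replicate 1 for 2, and h2 replicate 2 and h2 replicate 3 for 1 each. Relative to the WT mean, the median log2 ratio of the 10 genes was 0.78 in h1 replicate 2, 0.27 in h4 replicate 2 and 0.21 in WT replicate 2.

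**Figure D3:**
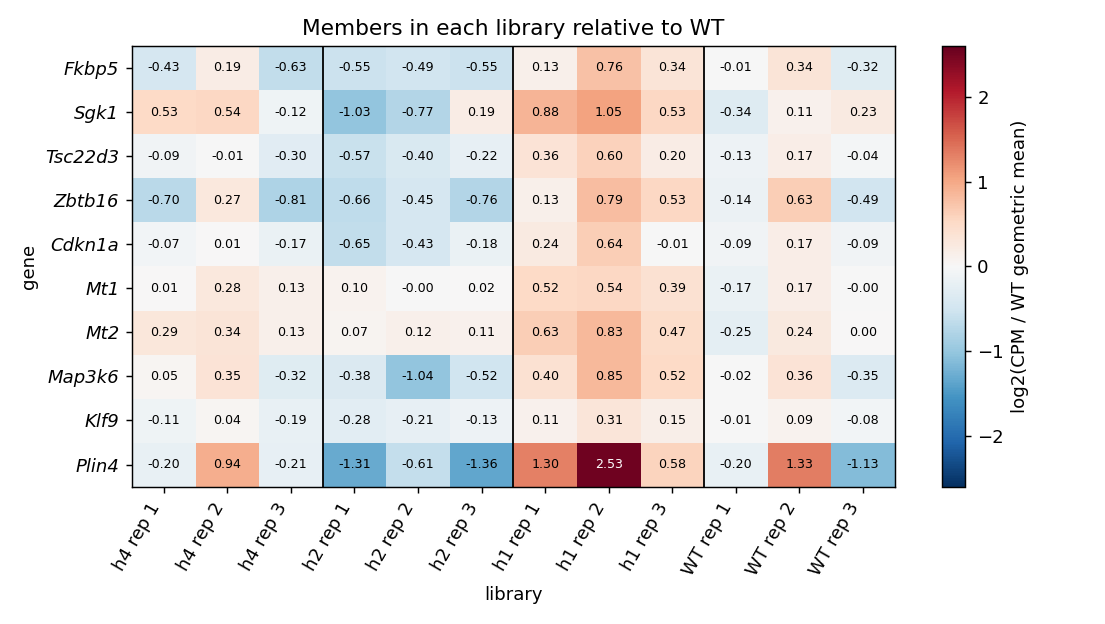
Log2 ratio of CPM to the geometric mean of the 3 WT libraries (color scale and numbers in the cells) for the 10 genes (rows) in the 12 libraries (columns, grouped by genotype). The column of h1 replicate 2 is the highest in every row, and replicate 2 of h4 and of WT is above the other mice of its genotype in most rows.

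Spread among mice of 1 genotype was wide for most of these genes. The within-genotype SD of log2(CPM + 1) was 0.73 for Plin4, 0.44 for Zbtb16, 0.42 for Sgk1 and 0.31 for Fkbp5, against a median of 0.09 over all tested genes, which placed these genes at percentiles 99.8, 99.4, 99.3 and 98.8. Klf9 and Mt1 were closest to a typical gene, with SDs of 0.10 and 0.12 at percentiles 55.7 and 65.8. Among genes of similar abundance, the edgeR biological coefficient of variation of each of the 10 genes lay at percentile 96.1 or above.

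With genotype means taken out, the log2(CPM + 1) values of all 45 pairs of genes were positively correlated over the 12 libraries, with a median Pearson r of 0.65. Fkbp5 and Zbtb16 were the closest pair (r = 0.96, Spearman rho = 0.92, adjusted p = 0.000225 and 0.0017 over the 45 pairs by permutation, 100000 resamples). Their r was 0.95 without the 2 libraries farthest from the median of Fkbp5, the gene named first, and 2 libraries were left out likewise for the pairs below. Tsc22d3 and Cdkn1a followed (r = 0.95, rho = 1, adjusted p = 0.000225 and 0.00045, permutation test, r = 0.93 without 2 libraries). Fkbp5 and Klf9 had r = 0.91 and rho = 0.94 (adjusted p = 0.00045 and 0.00068, permutation test), and 0.82 without 2 libraries. Sgk1 and Tsc22d3 had r = 0.83 and rho = 0.82 (adjusted p = 0.0064 and 0.0084, permutation test), and 0.79 without 2 libraries. Sgk1 and Zbtb16 had r = 0.12 and rho = 0.16 (adjusted p = 0.707 and 0.620, permutation test). With the mean of the other members, Klf9 had the highest r, 0.91, and Mt1 and Sgk1 the lowest, 0.62 and 0.50.

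An adjusted p under 0.05 was reached by 24 of the 45 pairs for r, by 22 for rho and by 21 for both. Where libraries were exchanged within their genotype only, 14 pairs passed. By that permutation the adjusted p was 0.023 for Fkbp5 with Zbtb16 and 0.023 for Tsc22d3 with Cdkn1a. It was 0.026 for Fkbp5 with Klf9 and 0.035 for Sgk1 with Tsc22d3, larger than by exchange over all libraries for each of these pairs. Without h1 replicate 2, with exchange over all remaining libraries, the count was 12. All 45 correlations remained positive without the 2 libraries farthest from the median of the first listed gene of each pair, with a median r of 0.57. Libraries far from the median of the other gene could remain. The points share the library and its depth, and mice of both sexes enter.

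**Figure D4:**
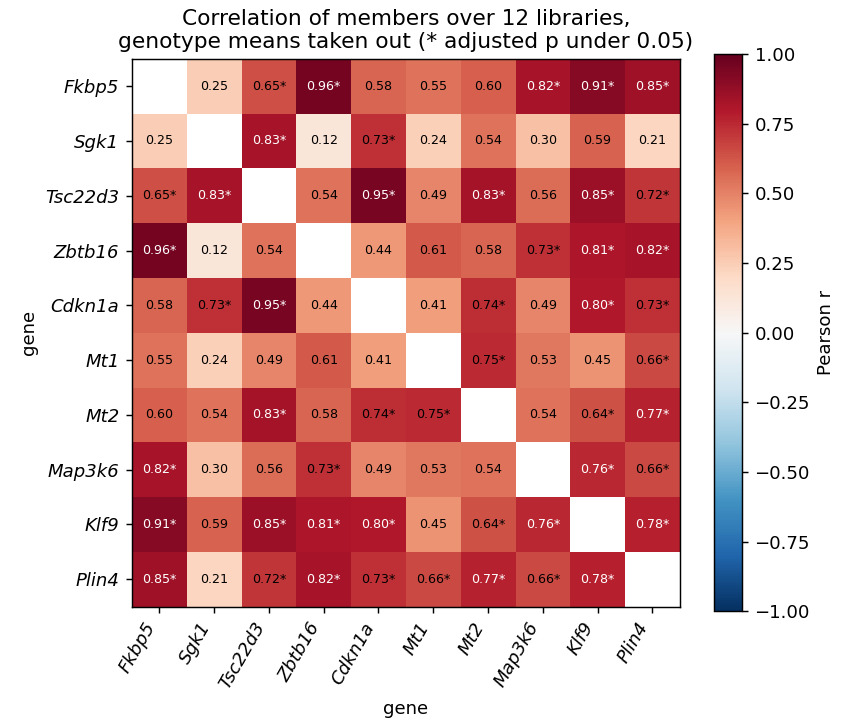
Pearson r between each pair of the 10 genes over 12 libraries, on log2(CPM + 1) with genotype means taken out (color scale from -1 to 1, r in the cells, asterisk for an adjusted p under 0.05 over 45 pairs by permutation). All cells are positive, from 0.12 for Sgk1 with Zbtb16 to 0.96 for Fkbp5 with Zbtb16.

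Outside the 10 genes, named protein-coding genes were ranked by how closely their deviations followed the mean of the 10 over the 12 libraries. The closest were Nmt1 (r = 0.95), Mfsd2a (r = 0.94), Ahnak (r = 0.94), Trim32 (r = 0.94) and B3galt5 (r = 0.94), given as a description. Mfsd2a, the transporter that takes lysophosphatidylcholine with docosahexaenoic acid across the blood-brain barrier, is itself known to respond to glucocorticoids. It stood at 21.4, 24.96 and 20.6 CPM in h4, at 17.8, 19.96 and 19.9 CPM in h2, at 31.5, 34.1 and 28.8 CPM in h1, and at 23.5, 28.3 and 23.4 CPM in WT. Its order was that of Klf9 and Tsc22d3, with h1 above all others and h2 below all WT libraries. Nmt1 and Trim32 stayed within 136 to 152 CPM and 161 to 173 CPM, so their closeness is in small deviations.

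A list of 30 other genes known to respond to glucocorticoids was measured beside the 10, and 29 were tested. In h2 against h1, where 0.722% of all tested genes were called, 4 of 29 fell and 0 rose, with a median log2 fold change of -0.41 and 26 of 29 negative. Those that fell were Mfsd2a (-0.71, SE 0.09, edgeR adjusted p = 0.00028), Bcl2l1 (-0.31, SE 0.04, adjusted p = 0.00062), an inhibitor of cell death, Pnpla2 (-0.60, SE 0.09, adjusted p = 0.0011), the first lipase of triglyceride breakdown, and Rhob (-0.21, SE 0.04, adjusted p = 0.018), a small GTPase. In h1 against WT, where 0.625% of all tested genes were called, 2 of 29 rose, Rhob (0.22, adjusted p = 0.011) and Pnpla2 (0.38, adjusted p = 0.041), and in h2 against WT, where 0.679% were called, 1 of 29 fell, Mfsd2a (-0.37, adjusted p = 0.047). In h4 against WT, where 4.55% of all tested genes were called and 1 of 29 is no more than that share, 1 rose, Gadd45g (0.69, adjusted p = 0.010), a growth arrest and DNA damage gene. In h4 against h1, where 4.64% of all tested genes were called, 6 of 29 fell, led by Mfsd2a (-0.51, adjusted p = 0.0014) and Glul (-0.35, adjusted p = 0.0023), the astrocytic glutamine synthetase. Of 6 astrocyte markers, 2 rose in h4 against h1, Slc1a3 (0.19, edgeR adjusted p = 0.00069) and S100b (0.19, adjusted p = 0.0037). In h4 against WT 5 of 6 rose, led by S100b (0.28, adjusted p = 8e-05). The part of astrocyte content in the level of Glul was not tested. In h4 against h2, where 3.22% of all tested genes were called, 0 of 29 passed.

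With genotype means taken out, 28 of those 29 genes had a positive r with the mean deviation of the 10, with a median of 0.65. The negative one was Adcyap1r1 (r = -0.31). The share of positive r over all tested genes is not given here. Other lists differed widely, with 13 of 15 clock genes positive (median 0.61) and 0 of 5 red blood cell markers (median -0.53). Glul (r = 0.91), Pnpla2 (r = 0.91) and Slc2a1 (r = 0.92), the glucose transporter of the blood-brain barrier, were among the closest, and Gadd45g (r = 0.06) and Dusp1 (r = 0.01), a phosphatase of MAP kinases, were near 0. Slc2a1, Dusp1 and Adcyap1r1 were chosen after their values were seen.

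**Figure D5:**
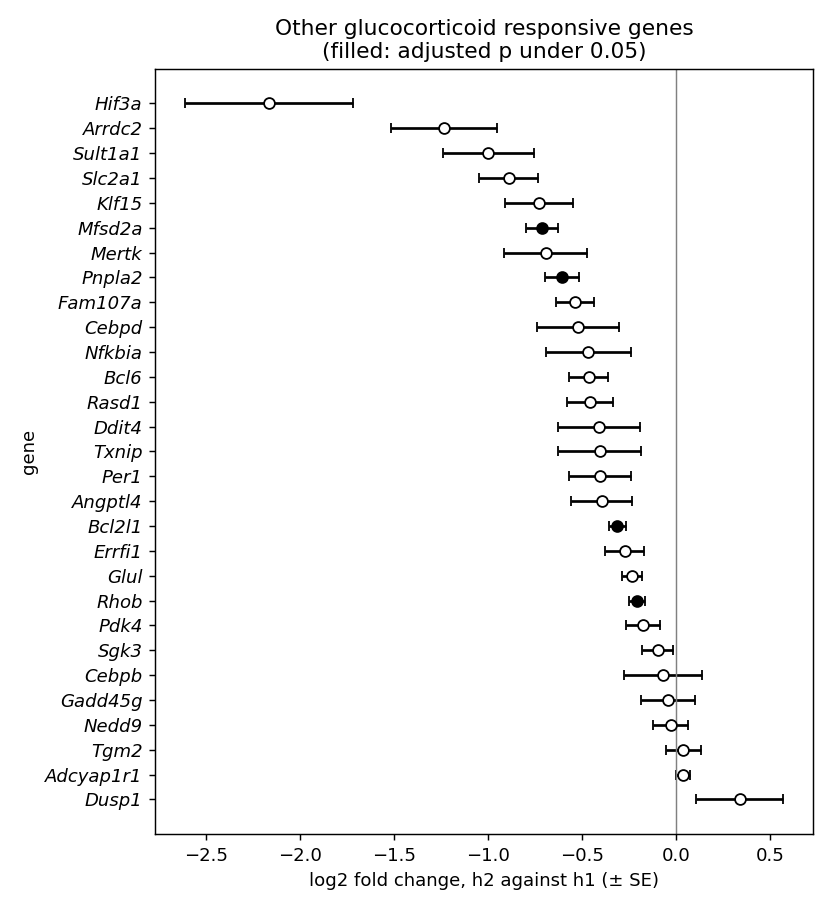
Fitted log2 fold change in h2 against h1 (horizontal axis, with its standard error from edgeR) of 29 other glucocorticoid responsive genes, sorted by value. Filled points mark an adjusted p under 0.05, which Mfsd2a, Pnpla2, Bcl2l1 and Rhob reached, and 26 of the 29 points lie below 0.

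The means of Nr3c1 ran in the reverse of the order h1, WT, h4 and h2 that 6 of the 10 genes had. Nr3c1, the glucocorticoid receptor, averaged 140.4 ± 3.80 CPM in h4, 142 ± 5.65 CPM in h2, 126 ± 3.97 CPM in h1 and 133 ± 8.63 CPM in WT (SD, n = 3 each), so that its lowest mean was in h1. With genotype means taken out, Nr3c1 had r = -0.63 with the mean deviation of the 10 genes over the 12 libraries, the most negative of the 19 tested genes of its list. It passed the test of any difference among genotypes (edgeR adjusted p = 0.043), and its log2 fold change of 0.16 in h2 against h1 did not pass (SE 0.04, adjusted p = 0.059). Nr3c2, the mineralocorticoid receptor, named after its values were seen, averaged 47.9 ± 3.20 CPM in h4, 49.9 ± 2.02 CPM in h2, 46.0 ± 3.40 CPM in h1 and 46.7 ± 2.63 CPM in WT, with an adjusted p of 0.562 for any difference in edgeR. Of 19 tested receptors, chaperones, cofactors and hormone-converting enzymes, 0 passed in h2 against h1, h2 against WT or h1 against WT. In these 0.722%, 0.679% and 0.625% of all tested genes were called. In h4 against WT, where 4.55% were called, 2 of 19 fell. These were Ncoa1 (-0.18, edgeR adjusted p = 0.0086) and Ncor1 (-0.14, adjusted p = 0.026), a coactivator and a corepressor of nuclear receptors. Among 10 tested genes of the hypothalamic-pituitary-adrenal axis, 1 fell in h2 against h1, where 0.722% of all tested genes were called. This was the melanocortin receptor Mc4r (-1.01, SE 0.23, edgeR adjusted p = 0.028). Against WT 0 of the 10 passed in any mutant, where 0.625% to 4.55% of all tested genes were called.

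Cell type markers moved in the comparison where Map3k6 and Klf9 fell, and where 0.722% of all tested genes were called. In h2 against h1, Mobp (-0.23, edgeR adjusted p = 0.0070) fell among 8 oligodendrocyte markers, of which all 8 had negative log2 fold changes. Olig2 (-0.29, adjusted p = 0.027) and Pdgfra (-0.18, adjusted p = 0.027) fell among 5 markers of oligodendrocyte precursors. Cldn5 (0.81, adjusted p = 0.0011) rose among 7 endothelial markers, and Pdgfrb (0.38, adjusted p = 0.025) among 5 mural markers. Oligodendrocyte markers rose in h1 against WT for 5 of 8 genes, where 0.625% of all tested genes were called. They were led by Mobp (0.35, SE 0.04, edgeR adjusted p = 0.00053). The summed level of the oligodendrocyte markers was 11785 to 12700 CPM in h4, 11753 to 12758 CPM in h2, 13553 to 13908 CPM in h1 and 10494 to 11969 CPM in WT. Within genotypes, the 8 oligodendrocyte markers had correlations of -0.47 to 0.41 with the mean deviation of the 10 genes, with a median of -0.13. Of 7 endothelial markers, 2 fell in that comparison, where 0.625% of all tested genes were called. In h1 against WT these were Cldn5 (-0.57, edgeR adjusted p = 0.011) and Cdh5 (-0.34, adjusted p = 0.018). The summed level of the endothelial markers was 259.6 to 281 CPM in h4, 271 to 277 CPM in h2, 239.7 to 256 CPM in h1 and 273 to 283 CPM in WT, and their median r with the 10 genes within genotypes was -0.47. Red blood cell markers had r of -0.62 to -0.46 with the 10 genes. Of these markers 0 of 5 were called in any pair, where 0.625% to 4.64% of all tested genes were called. Of 15 clock genes, 5 fell in h2 against h1, where 0.722% of all tested genes were called. Among them were Dbp (-0.43, SE 0.07, edgeR adjusted p = 0.0040), Ciart (-0.57, adjusted p = 0.0070) and Tef (-0.22, adjusted p = 0.0083), output or repressor genes of the circadian clock. The median r of the 15 clock genes with the 10 genes within genotypes was 0.61. Immediate early genes summed to 508 to 661 CPM in h4, 270 to 504 CPM in h2, 229 to 320.1 CPM in h1 and 355.5 to 424 CPM in WT, with a median r of -0.06 with the 10 genes. Of the 10 immediate early genes, 0 were called against WT in any mutant or in h2 against h1. In these comparisons 0.625% to 4.55% of all tested genes were called. In h2 against h1 all 10 had positive log2 fold changes (median 0.71), the direction opposite to that of the glucocorticoid responsive genes. In h4 against h1, where 4.64% of all tested genes were called, 2 of 10 rose. These were Npas4 (1.58, SE 0.27, edgeR adjusted p = 0.016) and Arc (1.58, SE 0.27, adjusted p = 0.017). Both passed the test of any difference among genotypes (adjusted p = 0.024 and 0.042). The part of cell composition, clock phase, neuronal activity, sex and handling in the levels of the 10 genes was not tested, and the labels used here give no time of collection.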

How the data were processed

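Expected counts, TPM and FPKM per gene were made by the authors with Bowtie2 2.2.0 and RSEM 1.2.12, per the submitters' processing notes, and deposited as 1 table per library together with the estimated transcript length and effective length. FPKM values as deposited by the authors were not used. No source used here names the genome build or annotation. Of 38924 gene identifiers, 37607 matched GENCODE M21 (GRCm38), which gave symbols and coordinates. The libraries were poly(A), 100 bp paired-end and, per the labels' protocols, made with a kit that does not mark strand.

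Expected counts were rounded and tested in R 4.3.3 with edgeR 4.0.16 (quasi-likelihood test, robust, TMM scaling, filterByExpr, 1 mean per genotype over 12 libraries), with Benjamini-Hochberg adjustment over 16493 genes and a threshold of 0.05. CPM is the expected count over the library total. The depth of 14513800 to 24694200 expected counts limits Map3k6 and Plin4 most. The mice are separate animals, and the labels name no litter, cage or sex. Sex was read from Xist and Ddx3y. Correlations used log2(CPM + 1) with genotype means taken out. The permutations behind their p-values treat the 12 centred libraries as exchangeable, and a p of 1e-05 is the smallest they can give. Alternatives were DESeq2 1.42.0, limma 3.58.1 on log2(TPM + 1), no filter, upper-quartile scaling, sex as a covariate, only the genotypes compared, and each library left out. The edgeR, DESeq2 and limma fits were tested on simulated counts, read for h1 against WT. The permutation tests and the motif search were not tested in that way.

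The members and lists were chosen with earlier results of these data known. From each other list the text names at most 4 called genes by smallest adjusted p. The genes nearest to the members are the 5 protein-coding genes with the highest r at a mean of at least 1 CPM. Unnamed and predicted genes, sex markers and genes of chromosome Y were left out of that ranking. Promoter windows are from RefSeq (GRCm38.p6).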

Additional observations from a re-analysis of the deposited data

Results flagged for a closer look

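Map3k6 and Klf9 are given again because their change against WT differed between the h2 and h1 genotypes by a test of that difference. For Map3k6 the difference, h2 against h1, was -1.26 on the log2 scale (edgeR adjusted p = 0.0035, range over the alternatives 7.62e-08 to 0.688), with all 3 h2 libraries below all 3 h1 libraries. The estimated transcript length of Map3k6 was also shorter in h2, 1352 ± 222 bases against 2056 ± 327 bases in h1 (SD, n = 3 each), and per length the libraries overlapped. For Klf9 the difference was -0.41 (edgeR adjusted p = 0.035, range over the alternatives 1.23e-07 to 0.191), with all 3 h2 libraries below all 3 h1 libraries. Allele and strain background cannot be told apart for h2. Groups of 3 mice were not searched for outlying libraries.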

How the results depend on the processing

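Of 1090 values of single members under alternatives, 1020 kept direction and side of the threshold, 45 passed where they had not, 9 no longer passed and 16 changed sign, and the causes were not tested. Genes called in h4 against WT numbered 152 under limma on log2(TPM + 1) (main 751) and 230 to 1111 with 1 library left out. In h2 against WT they numbered 288 with no low-count filter, 69 with sex as a covariate, 11 under limma and 18 to 348 with 1 library left out (main 112). In h1 against WT they numbered 236 with no filter, 31 with sex, 0 under limma and 22 to 166 with 1 library left out (main 103). In h2 against h1 they numbered 290 with no filter, 193 with only these genotypes, 4 under limma and 44 to 160 with 1 library left out (main 119). In h4 against h1 they numbered 107 under limma and 313 to 896 with 1 library left out (main 765). In h4 against h2 they numbered 844 with no filter, 121 under limma and 251 to 619 with 1 library left out (main 531). For any difference they numbered 1740 with no filter, 105 under limma and 550 to 1451 with 1 library left out (main 1100).

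Members called stayed at 0 in h4 against WT. In h2 against WT they were 1 with no filter, with sex or with only these genotypes, and 0 to 1 with 1 library left out. In h1 against WT they were 2 under DESeq2, 1 with no filter and 0 to 2 with 1 library left out. In h2 against h1 they were 9 under DESeq2, 0 under limma and 1 to 3 with 1 library left out (main 2). In h4 against h1 they were 4 under DESeq2, 1 each with no filter, upper-quartile scaling, sex or only these genotypes, and 0 to 3 with 1 library left out. In h4 against h2 they were 1 with no filter or with sex, and 0 to 1 with 1 library left out. For any difference they were 9 under DESeq2, 2 under limma and 1 to 4 with 1 library left out (main 4). With the replicate block, h2 against h1 called 204 genes and 7 members. Deviations of h2 and h1 libraries of the same number had correlations of -0.21, -0.16 and 0.05, against -0.23 to 0.33 for differing numbers. What the numbers mark is not stated, and so few libraries cannot show whether they pair the mice.

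Pairs of members that passed numbered 14 with permutation within genotype, added after the data were seen, and 12 to 27 with 1 library left out. Signs changed for Mt1 in h2 against WT (-0.017 with sex, -0.049 to 0.12 with 1 library left out), Mt2 in h2 against WT (-0.026 to 0.22), Map3k6 in h2 against WT (0.11 under limma) and Cdkn1a in h4 against WT (-0.14 to 0.0024). They also changed for Map3k6 in h4 against WT (-0.15 with sex, -0.17 to 0.21), Plin4 in h4 against WT (0.018 under limma, -0.59 to 0.86), Fkbp5 in h4 against h2 (-0.012 to 0.43) and Zbtb16 in h4 against h2 (-0.15 to 0.47). The correlation of Map3k6 with Sgk1 was -0.010 and with Cdkn1a -0.075 on log2(TPM + 1), and that of Sgk1 with Zbtb16 was -0.054 to 0.33 with 1 library left out. The Map3k6 length difference from WT was -620 to -431 bases in h4, -922 to -704 bases in h2 and -303 to 12.3 bases in h1 with 1 library left out.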
